A study of Mus musculus with 4 samples.

Results

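The genes described here are 6 that encode stored or abundant proteins of neutrophils, chosen by their platform gene symbol: S100a8, S100a9, Ngp, Camp, Ltf and Mpo. All 6 were found among the 8251 genes named on the array, through 7 probe sets, since Mpo had 2. Whole lungs of C57BL/6J mice, a standard inbred strain, had been pooled and their total RNA read on 1 Affymetrix oligonucleotide array per pool. One pool was unexposed, and the other 3 were collected 6, 18 and 90 h after aerosolised hexamethylene diisocyanate (HDI) at 10 mg per cubic metre, a reactive irritant used in polyurethane coatings. The labels give neither ages nor sexes, nor the size of a pool or the length of exposure. With 1 array per pool there is no spread between replicates, no test and no p-value, and each difference describes these arrays.

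Neutrophils are short-lived white blood cells that enter injured lung from the blood. They carry granules filled in the bone marrow: primary granules form first and hold enzymes such as myeloperoxidase, and secondary granules form later and hold antimicrobial proteins such as lactoferrin. Granule genes are transcribed mostly while the cells mature in the marrow, so that mature neutrophils hold little of these messages. S100a8 and S100a9 messages, in contrast, stay abundant in mature neutrophils and are also made by monocytes and by stressed epithelium. In bulk lung RNA, fewer cells of a type and less RNA per cell cannot be told apart.

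S100a8 and S100a9 were higher at 90 h than in unexposed lungs, by 1.83-fold and 1.77-fold, and Ltf was 2.93-fold lower at 6 h. Ngp, Camp and Mpo stayed within 1.55-fold of unexposed lungs at every time. At a threshold of 2-fold, 1 of the 6 genes was called at 6 h and none at 18 or 90 h. At 6 h the called gene was Ltf, which was lower, as were 1.51% of the 6044 genes compared, while 2.17% were higher. At 18 h 1.59% of all compared genes were higher and 0.944% lower, and at 90 h 0.726% were higher and 0.924% lower. Over the 6 genes the median log2 difference was -0.28, -0.23 and -0.01 at 6, 18 and 90 h, against -0.04, -0.01 and 0.03 over all compared genes. Of the 6, 5 lay below 0 at 6 h, 4 at 18 h and 3 at 90 h. S100a9 was near background at 6 h and compared there only through its unexposed reading, so its sign at 6 h was fixed in advance. Among all compared genes, 3300 of 6044, 3130 of 6040 and 2799 of 6061 lay below 0 at these times.

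The 3 genes with the widest spread over the pools are shown with the 250 bases before their annotated start. They were picked because S100a8 and S100a9 read alike on these arrays, while Ltf differed from them relative to unexposed lungs. The sequences are from RefSeq on build GRCm38.p6, 5′ to 3′ on the strand of the gene. Capitals mark letters of 3 motifs, each searched for on both strands. TTNNGNAA is a core of sites for C/EBP factors. GAGGAA is a core for PU.1 and reads TTCCTC on the opposite strand. The last is TATAAA, the TATA box.
S100a8 (chr3:90668821-90669070, plus strand): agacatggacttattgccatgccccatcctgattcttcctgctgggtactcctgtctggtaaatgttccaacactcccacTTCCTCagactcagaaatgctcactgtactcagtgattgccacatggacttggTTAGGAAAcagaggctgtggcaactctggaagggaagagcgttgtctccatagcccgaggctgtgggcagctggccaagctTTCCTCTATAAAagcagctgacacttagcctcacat
S100a9 (chr3:90695722-90695971, minus strand): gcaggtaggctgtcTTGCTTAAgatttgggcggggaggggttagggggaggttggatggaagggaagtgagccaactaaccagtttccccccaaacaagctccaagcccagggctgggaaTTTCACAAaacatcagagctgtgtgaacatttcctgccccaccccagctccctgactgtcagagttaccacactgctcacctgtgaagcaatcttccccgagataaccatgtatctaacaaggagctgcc
Ltf (chr9:111019042-111019291, plus strand): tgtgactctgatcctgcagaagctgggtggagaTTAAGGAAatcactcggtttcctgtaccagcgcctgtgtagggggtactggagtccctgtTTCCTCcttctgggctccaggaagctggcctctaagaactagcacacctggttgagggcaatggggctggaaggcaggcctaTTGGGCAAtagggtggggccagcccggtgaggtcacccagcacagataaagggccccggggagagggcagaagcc
The S100a8 window held 1 C/EBP core, 2 PU.1 cores and a TATAAA 30 bases before the start, directly after 1 of the PU.1 cores and not overlapping it. The S100a9 window held 2 C/EBP cores and no PU.1 core, and its TATAAA began at the annotated start itself, outside the bases shown. The Ltf window held 2 C/EBP cores and 1 PU.1 core. Of 32851 mouse windows of the same length, 36.8% held the C/EBP core, 23.3% the PU.1 core and 12.4% TATAAA, so such matches are common, and they describe letters rather than binding. A further motif, the STAT core TTCNNNGAA, was in 7.02% of windows and in none of the 6 genes' windows. By the RefSeq gene order, S100a8 and S100a9 are next to each other on chromosome 3, in a cluster of S100 genes. Camp, Ngp and Ltf all lie on chromosome 9 and Mpo on chromosome 11.

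By their brightest probe sets, the 6 genes ranged from mid-range to moderately bright on these arrays. S100a8 lay between the 71.7th and 89.0th percentiles of all probe sets, while S100a9 lay between the 37.5th and 67.9th. Each array was scaled to a common trimmed mean, and a floor of 77.7 scaled units, the 40th percentile of all values, marks what is treated as near background. Of the 28 readings (7 probe sets on 4 arrays), 23 lay above the floor. S100a8, Ngp, Camp, Ltf and the brighter Mpo probe set were above it on all 4 arrays, and S100a9 on all but the 6 h array. The second Mpo probe set was below the floor throughout, at 15.2, 18.7, 17.5 and 24.4 units in the unexposed, 6, 18 and 90 h pools, and gives no fold. As a further gauge, 19 control probe sets for Bacillus and yeast transcripts had medians of 52.7, 48.8, 48.1 and 47.1 units and reached 184, 116, 135 and 123.6 units. S100a9 was within that range in the unexposed, 6 and 18 h pools, Camp in the unexposed and 18 h pools, and Ltf at 6 h. A further 9 probe sets for hybridisation spike-in controls had median log2 differences from unexposed lungs of -0.11, 0.14 and 0.36 at 6, 18 and 90 h. Whether any control transcripts had been added to the RNA is not stated in the labels. For the error of a difference, probe sets of the same gene gave a robust SD of the log2 difference from unexposed lungs of 0.27 at 6 h, 0.27 at 18 h and 0.25 at 90 h. This covers probe error on these arrays and leaves out differences between animals and pools.

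**Figure D1:**
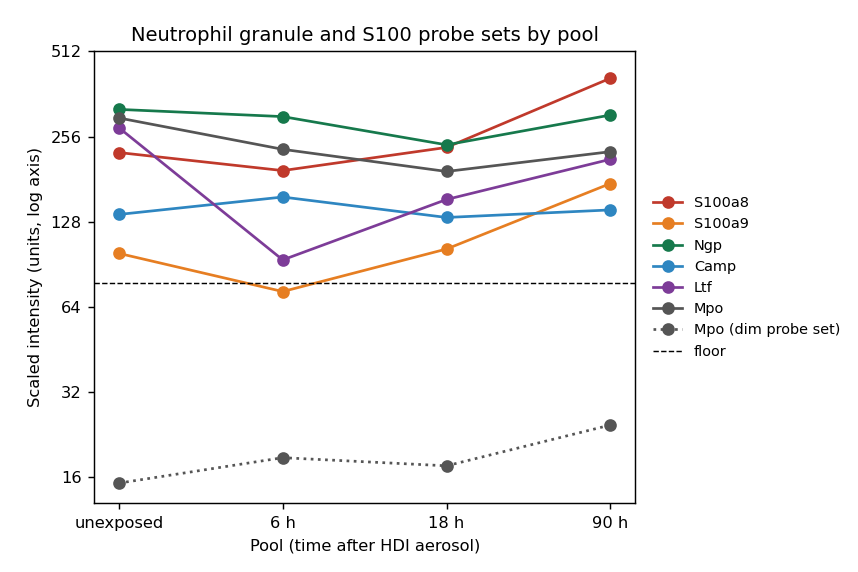
Scaled intensity on a log axis of the 7 probe sets in the unexposed, 6, 18 and 90 h pools, 1 array each, with the floor of 77.7 units as a dashed line. S100a8 (412 units) and S100a9 (175 units) are highest at 90 h, Ltf is lowest at 6 h (93.7 units), and the dotted Mpo probe set is below the floor in every pool.

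S100a8 and S100a9 encode small calcium-binding proteins that pair to form calprotectin, which also binds zinc and manganese and so withholds them from microbes. S100a8 read 225, 194, 234 and 412 scaled units in the unexposed, 6, 18 and 90 h pools. S100a9 read 98.8, 72.4, 102 and 175 units. For both genes the 90 h pool stood above the other 3, which lay close together, and the 6 h pool was lowest. At 90 h S100a8 had a log2 difference from unexposed lungs of 0.87, which is 3.6 times the SD between probe sets, and that of S100a9 was 0.82, or 3.3 times. Of the 6061 genes compared, 1.06% had a larger difference than S100a8 and 1.27% a larger one than S100a9. The spike-in controls were also higher at 90 h, with a median log2 difference of 0.36, and their part in these readings was not tested. At 18 h the log2 differences were 0.06 and 0.05, well within probe error. At 6 h S100a8 had -0.21, and S100a9, below the floor there, was at least 1.27-fold lower.

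The step between the later pools carried the higher S100 readings. From 18 h to 90 h the log2 difference was 0.81 for S100a8 and 0.77 for S100a9. All 6 genes were above 0 in that comparison, from 0.09 for Camp upward, as were 3168 of all 5976 compared genes. The median was 0.41 over the 6 and 0.02 over all compared genes. None of the 6 passed 2-fold in it, where 0.904% of all genes were higher and 0.954% lower. None passed it from 6 h to 18 h either, where 1.18% of all genes were higher and 1.17% lower, and the largest difference was that of Ltf (0.71). The comparison of 90 h with 6 h was added after the values were seen. In it 3 of the 6 genes were at least 2-fold higher, as were 2.06% of all compared genes, and 2.15% of all genes were lower. S100a8 was 2.12-fold higher at 90 h than at 6 h, Ltf 2.27-fold, and S100a9 at least 2.25-fold. Comparisons with a pool in common are not independent of each other.

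Ltf encodes lactoferrin, an iron-binding antimicrobial protein of secondary granules that glandular epithelium also secretes. It read 275, 93.7, 153 and 213 units in the unexposed, 6, 18 and 90 h pools. All 3 exposed pools lay below the unexposed pool, and later pools lay closer to it. At 6 h its log2 difference from unexposed lungs was -1.55, 5.7 times the SD between probe sets, and only 0.248% of the genes compared had a lower one. At 18 h the difference was -0.84 (1.79-fold lower), with 1.95% of genes lower still, and at 90 h it was -0.37, or 1.5 times the SD. With the floor raised to the 60th percentile, the 6 h reading became the floor and the difference a bound of -1.0, just short of 2-fold.

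Ngp encodes neutrophilic granule protein, a relative of the cathelicidins stored in secondary granules. It read 319, 301, 239 and 305 units in the unexposed, 6, 18 and 90 h pools. Its lowest pool was that of 18 h, with a log2 difference of -0.42, and the other exposed pools were within 0.08 of unexposed lungs. Camp encodes the cathelicidin precursor, from which the antimicrobial peptide CRAMP is cut. Camp read 136, 156, 132 and 141 units, the narrowest spread of the 6, with a highest to lowest ratio of 1.18. Its log2 differences of 0.20, -0.04 and 0.05 were all below the SD between probe sets.

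Mpo encodes myeloperoxidase, the heme enzyme of primary granules that makes hypochlorous acid. The brighter probe set read 298, 231, 193 and 226 units in the unexposed, 6, 18 and 90 h pools. All 3 exposed pools were lower than the unexposed pool, with log2 differences of -0.37, -0.63 and -0.40, the 18 h one 2.4 times the SD between probe sets. The suffix of this probe set marks possible cross-hybridisation. The dim probe set was below the floor in every pool, so no direction is read from it. Mpo therefore has no second reading on these arrays that could be set beside the first.

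**Figure D2:**
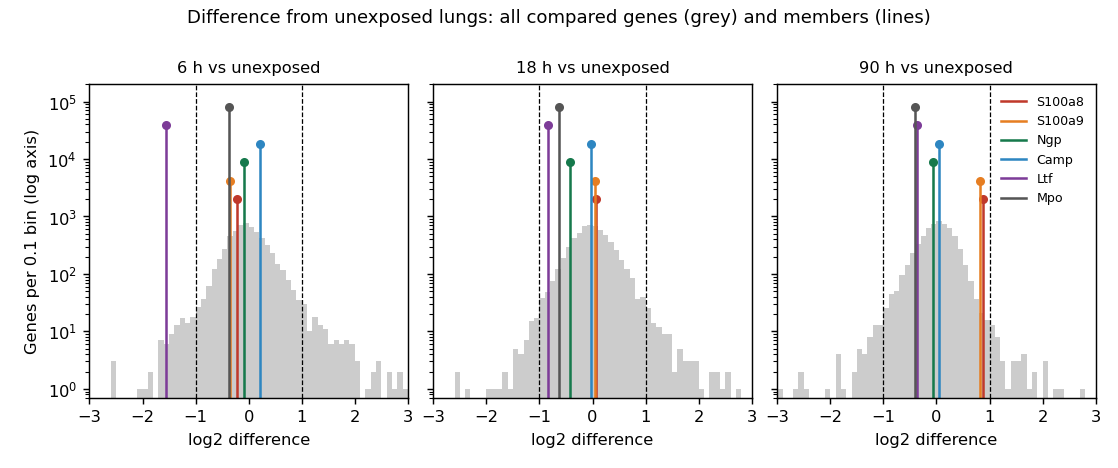
Distribution of log2 differences from unexposed lungs at 6, 18 and 90 h: grey bars count all compared genes per bin of log2 difference on a log axis, coloured lines mark the 6 genes (line heights only separate them), and dashed lines mark 2-fold. Ltf lies outside the 2-fold line at 6 h, and S100a8 (0.87) and S100a9 (0.82) lie together just inside it at 90 h.

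The 6 profiles did not run as a group. Likeness was measured as the Euclidean distance between the 3 log2 differences from unexposed lungs. S100a8 and S100a9 were 0.14 apart, the closest pair among the 6, though S100a9 was set to the floor at 6 h. Ngp lay 0.48 from Mpo and 0.49 from Camp, and Ltf lay 1.20 or more from every other member, 2.04 from S100a8. These distances take the unexposed pool as reference. Among the exposed pools, S100a8, S100a9 and Ltf all read lowest at 6 h and highest at 90 h. Ngp, Camp and Mpo read lowest at 18 h. With the unexposed pool included, these lowest pools stayed the same. S100a8 and S100a9 were still highest at 90 h, while Ltf was highest in unexposed lungs. Of 5083 genes above the floor in all pools, unnamed ones included, 29.3% were lowest at 6 h and 24.6% at 18 h. Of the same genes 25.7% were highest at 90 h and 27.6% in unexposed lungs. These shares are over all 4 pools, and shares over the exposed pools alone were not counted. Among 5024 genes above the floor in all pools, the 4 nearest to S100a8 were Aurkb (0.13), Pcyox1 (0.14), Npc1 (0.19) and Clu (0.22), and 5 genes lay within 0.25 of it. The 4 nearest to Ltf were St8sia4 (0.15), Fhdc1 (0.24), Snn (0.27) and Kap (0.35), with 2 genes within 0.25. Ngp, Camp and Mpo had 317, 535 and 175 genes within 0.25. Their nearest genes were Cav3, Fam110a, Agap1 and Itgb5 for Ngp, Tjp1, Grin2c, Ppp2cb and Ubl3 for Camp, and Pcsk1n, Cdk5r2, Tpsab1 and Meig1 for Mpo. With 3 points per profile such closeness is a description of 4 arrays.

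Other S100 genes, most of them in the same chromosome cluster, did not share the 90 h readings of S100a8 and S100a9. Of 11 further S100 genes on the array (14 were listed), 9 could be compared, and none passed 2-fold against unexposed lungs at any time, with medians of -0.18, -0.06 and 0.12 at 6, 18 and 90 h. S100g, which encodes the calcium carrier calbindin-D9k, came nearest at 90 h, at 290, 233, 240 and 427 units and a log2 difference of 0.56. S100a4, a gene of motile cells including leukocytes, read 307, 163, 309 and 333 units, low at 6 h alone (-0.91). S100a6, calcyclin, read 1981, 1880, 3106 and 1916 units, high at 18 h alone (0.65). S100a13 was lowest at 6 h, with a log2 difference of -0.48.

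**Figure D3:**
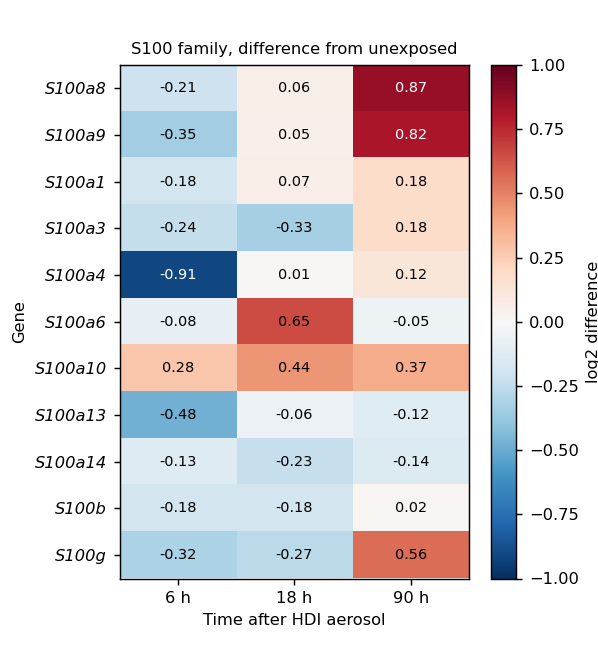
Log2 difference from unexposed lungs of the S100 genes above the floor in at least 1 pool, with genes as rows and 6, 18 and 90 h as columns. S100a8 and S100a9 hold the highest values at 90 h (0.87 and 0.82), S100a4 the lowest at 6 h (-0.91), and S100a6 the highest at 18 h (0.65).

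Other granule proteins ranged from bright to near background, and few differed by 2-fold. Of 21 listed genes 18 were on the array, and 9 of these were above the floor in every pool. Among the bright ones, Hp, the hemoglobin-binding haptoglobin, stood at -0.21, -0.13 and -0.13 on the log2 scale relative to unexposed lungs at 6, 18 and 90 h. Lyz2, a lysozyme of neutrophils and macrophages, had -0.36, -0.40 and 0.04, and Mgst1, a glutathione transferase, -0.32, 0.04 and -0.36. All 3 were chosen after their values were seen. In contrast, 6 genes were near background in every pool: Prtn3, Ctsg, Mmp8, Itgam, Adam8 and Serpinb1a. Prtn3 and Ctsg encode serine proteases of primary granules, as does Elane, which read 81.2, 79.2, 38.9 and 50.1 units in the unexposed, 6, 18 and 90 h pools, above the floor in the first 2 by little. The list's medians were -0.27, -0.09 and -0.01 at 6, 18 and 90 h, over 11, 12 and 12 compared genes. Lcn2, a siderophore-binding protein made by neutrophils and by airway epithelium, was the 1 gene past 2-fold at 18 h, at 2524 units against 438 in unexposed lungs. Chil3, a chitinase-like protein of neutrophils and macrophages, was the 1 gene past it at 90 h, at 846 units against 391 in unexposed lungs. Lcn2 thus stood highest at 18 h (log2 difference 2.53), when S100a8 and S100a9 were level with unexposed lungs. Cyba, an oxidase subunit, had log2 differences of -0.60, 0.03 and 0.55, by a probe set marked for possible cross-hybridisation, and Cst7, a cystatin, -0.40, 0.10 and -0.55.

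Few surface and signalling genes of neutrophils differed by 2-fold either. Of 31 listed genes 18 were on the array, and 4 were near background in every pool, among them Ly6g, the antigen by which mouse neutrophils are usually sorted, and Fpr2, a formyl peptide receptor. The medians were -0.18, -0.24 and 0.03 over 13, 12 and 13 compared genes. Of these, 9, 9 and 6 lay below 0, as did 3300 of 6044, 3130 of 6040 and 2799 of 6061 of all compared genes. Some of the differences were bounds, with a sign fixed in advance. Itgb2, the integrin chain shared by leukocytes, was the 1 gene past 2-fold, at 644 units at 90 h against 297 in unexposed lungs. At 6 h Itgb2 read 192 units, a log2 difference of -0.63. Cxcr2, the receptor for neutrophil chemokines, was above the floor at 6 h alone, at 151 units, a bound of at least 1.94-fold over unexposed lungs. Ltb4r1, a leukotriene B4 receptor, read 155, 65.9, 174 and 28.3 units, below the floor at 6 and 90 h, so that both differences are bounds of at least 1.99-fold lower. Rac2, a GTPase of the leukocyte oxidase, had a log2 difference of -0.74 at 6 h. Csf3r, the receptor of granulocyte colony-stimulating factor, read 394, 352, 305 and 316 units by its brightest probe set, a log2 difference of -0.16 at 6 h and -0.32 at 90 h. Its other 2 probe sets read lower at 6 h, by -0.84 for one marked for possible cross-hybridisation and by a bound of -0.72 for the other, and had 0.02 and 0.21 at 90 h. Csf3r was added to the genes named after its values were seen.

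Signals that draw neutrophils in, and factors that drive their genes, differed among themselves. Of 16 chemoattractant, cytokine and adhesion genes on the array (17 listed), 7 were near background in every pool, among them Cxcl2, Csf3 and Il6, and none of the others passed 2-fold at any time. The medians were 0.17, -0.11 and -0.11. Icam1, the endothelial ligand of leukocyte integrins, had the largest difference, 0.80 at 6 h, followed by Csf2 (-0.48 at 18 h, a bound), Vcam1 (-0.46 at 6 h) and Cxcl1 (0.40 at 18 h). The other probe sets of Vcam1 had -0.24, by a marked one, and a bound of 0.01 at 6 h. Cxcl1 was read by a probe set marked for possible cross-hybridisation, and its other probe set was below the floor in every pool. Of 9 regulators of granulocyte formation on the array (10 listed), Cebpd alone passed 2-fold. Cebpd, a C/EBP factor of acute phase responses, was 3.08-fold higher at 6 h and 2.55-fold at 18 h, with a log2 difference of 0.17 at 90 h. Cebpb, a related factor of myeloid cells, had differences of 0.50, 0.74 and 0.34, Irf8, which directs monocyte fate, -0.99, -0.34 and -0.03, and Spi1, which encodes PU.1, -0.44, 0.07 and 0.55. The list's medians were 0.00, 0.10 and 0.14. Cebpd was high at 6 and 18 h, and S100a8 and S100a9 at 90 h. The part of Cebpd in the S100 readings was not tested.

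Receptors that sense these proteins were, as a list, near the level of unexposed lungs, with medians of -0.14, -0.08 and 0.08 in 7 compared genes of 8 on the array (10 listed). Ager, the receptor RAGE for S100 proteins and a product of alveolar type I cells, read 4446, 4040, 4217 and 4317 units. Cd14, which passes ligands to Toll-like receptors, was 2.13-fold higher at 18 h. Cd36, a scavenger receptor, was 2.21-fold lower at 6 h, by a probe set marked for possible cross-hybridisation, while its other probe set read 122 units at 6 h, against 77.1 units in unexposed lungs. Itln1, a lectin, had a difference of -0.71 at 18 h, and P2rx7, an ATP-gated channel, one of at least 0.48 at 6 h.

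Markers of white blood cells in general, and of macrophages, differed between the pools as well. All 6 general leukocyte markers were on the array and above the floor in unexposed lungs, and their summed scaled intensity was 2879, 1349, 1994 and 3382 units in the unexposed, 6, 18 and 90 h pools. At 6 h, when Ltf and S100a9 were lowest, all 6 were lower than in unexposed lungs, as were 3300 of all 6044 compared genes. Of the 6, 4 were past 2-fold: Cd52 was 3.05-fold, Ptprc 2.57-fold, Coro1a at least 2.53-fold and Lcp1 2.28-fold lower. Coro1a was below the floor at 6 h and compared only through its unexposed reading, so its sign there was fixed in advance. The median was -1.26, or -0.63 with the probe sets of each gene averaged. That average takes in probe sets of Ptprc and Lcp1 below the floor in every pool, which shorten the difference by construction. It also takes in marked probe sets with smaller differences. For Laptm5 such a probe set, above the floor in every pool, had -0.41 against -0.84 by the brightest. For Ptprc another had a bound of -0.44 against -1.36. At 18 h the median was -0.61 with 1 past 2-fold, and at 90 h it was 0.16 with none. The macrophage and monocyte markers, 12 on the array of 14 listed, summed to 2130, 1857, 2731 and 3700 units. At 90 h, when S100a8 and S100a9 were highest, all 9 compared markers of that list were above 0 (median 0.67), as were 3262 of all 6061 compared genes. Ctsk was at least 3.10-fold and Mrc1 2.04-fold higher, while Marco, Msr1 and Cd5l stayed below the floor. Ctsk and Adgre1 were below the floor in unexposed lungs. They were compared only through their 90 h readings, so their sign was fixed in advance. At 18 h Lgals3 and Cd14 were 2.20-fold and 2.13-fold higher and the median was 0.07, and at 6 h it was -0.24. By the probe set used, no marker of either kind was at 0 on any array. The part of either cell group in the readings of S100a8, S100a9 and Ltf was not tested.

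**Figure D4:**
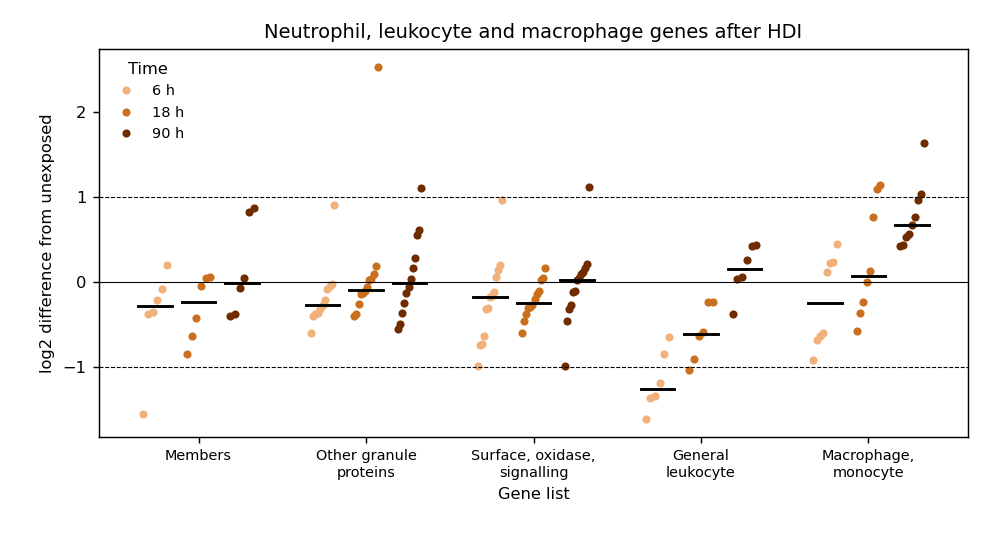
Log2 difference from unexposed lungs of each compared gene (points) at 6, 18 and 90 h in 5 gene lists, with black bars for list medians and dashed lines at 2-fold. General leukocyte markers are lowest at 6 h (median -1.26 by the brightest probe sets, -0.63 averaged with probe sets below the floor included). Macrophage and monocyte markers are highest at 90 h (0.67), while the medians of the granule and surface lists lie between -0.27 and 0.03.

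Further marker lists give the setting of the pools. Lung tissue markers were present as labelled, with 7 of 8 on the array above the floor in every pool, all but Sftpd, and had medians of -0.05, -0.11 and -0.09. Secretory epithelium, a second source of lactoferrin, had medians of -0.25, -0.34 and -0.24 over 8, 7 and 7 genes, none past 2-fold. At 6 h 5 of its 8 compared genes were below 0 and 3 above. Reg3g, an antimicrobial lectin, had a difference of -0.99 and Bpifb1, a secreted airway protein, one of -0.76, while Muc5ac, a gel-forming mucin, was at least 1.52-fold higher. Cyp2f2, an enzyme of club cells, was lowest at 18 h (-0.64). Squamous epithelium, where stressed cells make S100a8 and S100a9, had medians of -0.06, -0.08 and -0.21 in 8 compared genes. There Sfn was at least 7.23-fold, at least 3.72-fold and at least 1.35-fold higher at 6, 18 and 90 h, and Sprr1a was 2.70-fold higher at 18 h but at least 2.26-fold lower at 90 h. Krt17, a keratin, was 2.38-fold, 3.24-fold and 1.91-fold higher at 6, 18 and 90 h by a probe set marked for possible cross-hybridisation, while another marked probe set had log2 differences of -0.18, -0.78 and -0.73. Lor, the cornified envelope protein loricrin, had its largest difference at 90 h, -0.96, also by a marked probe set. Sfn read highest at 6 h, and Sprr1a and the brightest Krt17 probe set at 18 h. The part of epithelium in the readings of S100a8, S100a9 and Ltf was not tested.

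Blood and granulocyte lists complete the markers. Eosinophil, basophil and mast cell genes had medians of -0.53, -0.36 and -0.30 in 6 compared genes. Mcpt8 was 2.49-fold lower at 6 h and 2.34-fold at 90 h by a marked probe set. Its unmarked probe set read 95.7 units in unexposed lungs and was below the floor in every exposed pool, a bound of at least 1.23-fold lower. In that list the eosinophil gene Prg2 was below the floor throughout. Epx, another eosinophil gene, was above it in every pool, at 104, 99.9, 82.5 and 80.3 units, by little in the last. Il5ra was listed at 0 in the unexposed and 6 h pools, and Fcer1a was listed at 0 at 18 h. Red cell genes had medians of 0.19, -0.10 and -0.25 in 7 compared genes, with Epb42 at least 2.09-fold lower at 90 h by its brightest probe set. The other Epb42 probe set had a log2 difference of -0.42 at 90 h. Of 4 platelet genes on the array 2 were compared, with medians of -0.23, -0.41 and -0.33.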

How the data were processed

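The deposited table holds a linear intensity for every probe set on each array. Which software, background correction and scaling made it is not given in the sources at hand. Symbols are those of the platform annotation. Of 12488 probe sets, 66 were controls, 10833 had 1 symbol, 396 several and 1193 none, and the last 2 kinds were left out.

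Arrays were brought to a common mean, with 2% of values trimmed at either end (factors 1.072, 0.993, 0.970 and 0.972). Values under the floor of 77.7 units were set to it, and log2 was taken. Deposited medians were 97.7, 105.6, 106.1 and 108.0 units. The number of arrays limits the precision. A gene was read by its brightest probe set and compared where above the floor on at least 1 of both arrays. On 1 only, the difference is a bound. Genes 2-fold apart or more were counted as called. The genes named were all 6 members, up to 4 genes per list with the largest difference from unexposed lungs, and the 4 nearest profiles per member, with named exceptions. Unnamed complementary DNAs were passed over as nearest profiles. The members and the 14 lists were chosen with earlier results of these data known. The alternatives were other scalings, floors, thresholds and probe set choices and a pseudocount. The code was tested on simulated data (Python 3.11.15, pandas 2.3.3).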

Additional observations from a re-analysis of the deposited data

How the results depend on the processing

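Each difference is that of 1 array per pool. No paired analysis was possible because each group held 1 array, and no array could be left out. Of 278 member differences recomputed under the alternatives, 271 moved by less than the SD between probe sets and none that passed 2-fold turned sign. The others were Mpo at 18 h averaged over both probe sets (-0.31) and 6 differences of Ltf and S100a9 under a floor at the 60th percentile, where S100a9 had 0.34 at 90 h. That floor lies above dim readings and shortens their differences by construction. The dim Mpo probe set, below the floor in every pool, shortens the averaged Mpo difference in the same way.

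The number of the 6 genes past 2-fold was 1, 0 and 0 at 6, 18 and 90 h against unexposed lungs. With deposited values unscaled it was 1 at 90 h, S100a8 with a log2 difference of 1.02, but the median of all genes was then 0.07, 0.12 and 0.16 at 6, 18 and 90 h. Small differences of Camp at 18 h (-0.04) and of Ngp at 6 h and 90 h (-0.08 and -0.07) were above 0 under some alternatives, at up to 0.11, 0.03 and 0.08. Raising the floor to the 60th percentile gave 0 at 6 h, and for 90 h against 6 h it gave 1 in place of 3, with 0 under a pseudocount of 32. At a threshold of 1.5-fold it was 2 at 18 h, 2 at 90 h, 1 for 18 h against 6 h and 2 for 90 h against 18 h. At 3-fold it was 0 at 6 h and for 90 h against 6 h. The number of listed genes past 2-fold was 9, 8 and 7 at 6, 18 and 90 h, and 4, 10 and 19 for 18 h against 6 h, 90 h against 18 h and 90 h against 6 h. A floor at the 25th percentile gave 15 at 6 h and 7 for 18 h against 6 h. A floor at the 60th gave 5 at 6 h and 2 at 90 h, and averaged probe sets 5 at 6 h and 12 for 90 h against 6 h. At 1.5-fold these 6 counts were 35, 22, 16, 20, 27 and 32, and at 3-fold 3, 3, 1, 1, 2 and 6. The shares of all genes given earlier are for 2-fold under the main settings. Counts of members or listed genes under other settings therefore have no such share beside them. Of 672 list medians recomputed, 646 moved by less than the SD between probe sets. The exceptions include the general leukocyte markers at 6 h, with a median of -0.63 when probe sets were averaged, those below the floor in every pool included. Where no cause is named above, the cause was not tested.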

Other observations

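Slpi, which encodes a protease inhibitor of neutrophils and airway epithelium, was read unlike by its probe sets. The brightest had log2 differences from unexposed lungs of -0.08, -0.14 and -0.49 at 6, 18 and 90 h, by a probe set marked for possible cross-hybridisation. An unmarked probe set read 126, 228, 477 and 230 units in the unexposed, 6, 18 and 90 h pools, with a log2 difference of 1.92 at 18 h. No other Slpi probe set was high at 18 h. A brighter unmarked probe set read 338, 323, 375 and 297 units, with differences of -0.06, 0.15 and -0.18. A further marked probe set had 0.08, 0.07 and -0.15. Slpi was chosen after its values were seen.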
